A study of Mus musculus with 12 samples.

Results

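The Rab genes of LPS-treated mouse macrophages are described here, taken as every gene whose platform symbol is Rab followed by digits and at most a letter and a digit. The rule found 59 genes of the 18193 tested, measured by 132 probe sets, and 38 of the genes had more than 1 probe set. Where a gene had several, its probe set of highest mean stands for it. The choice used symbols and mean level only, not a difference between groups. The cells were C57Bl/6 bone marrow cells differentiated into macrophages with M-CSF, and 12 Affymetrix arrays held 4 groups of 3 biological replicates, lettered A, B and C. Restimulated cells received 100 ng/ml lipopolysaccharide (LPS) for 18 h, new medium, 2 h of rest and then 100 ng/ml LPS again. Cells given LPS once were left without LPS for the 18 h and received it only after the rest. Pretreated cells received LPS for the 18 h and none after the rest. Untreated cells received none at either step. How long the last exposure lasted is not stated in the labels. The design addresses LPS tolerance, the altered response of macrophages that have already met LPS.

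Rab proteins are small GTPases that mark membranes with an identity. A Rab carries prenyl lipid tails, is switched on by an exchange factor that loads GTP, recruits effectors that move, tether or fuse vesicles, and is switched off by a GTPase-activating protein. In macrophages they govern uptake and maturation of phagosomes, delivery of Toll-like receptors to and from the surface, and the release of cytokines and granules.

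The values are linear intensities, tested as log2(value + 16) with limma in 1 fit of all 12 arrays. A call needs an adjusted p under 0.05 (Benjamini-Hochberg, over the 18193 genes) together with a 2-fold difference. Values with ± are limma's log2 differences and their standard errors (SE), with n = 3 per group, and the added 16 makes folds of dim genes too small. The restimulated C array stood apart: it averaged 246.7 units, while the other 11 arrays averaged 310.04 to 316.98. On it the 20 Rab genes of mean intensity from 100 to 1000 had a median log2 difference of -0.56 from restimulated A and B. Results without it are given beside each Rab gene whose call it decides. The cells carried macrophage markers: 10 of 10 were measured at a mean of 50 or more, among them Csf1r, Adgre1 and Lyz2. Mertk, another of the 10, read 221.2, 85.5 and 105.0 in cells given LPS once, against 1911.8, 1320.2 and 1775.3 in untreated cells. Summed intensities of 6 T and NK cell markers stayed between 196.5 and 311.3 in all groups, and those of 4 B cell markers between 76 and 149.8. Those of 5 neutrophil markers ran from 122.4 to 538.5, and Ltf read 231.9 on untreated B and 251.0 on LPS once B. Those of 5 dendritic cell markers ran from 164.3 to 443.5. Fibroblast and stromal markers followed the replicate letter. Their 5 genes, with Col1a2 the brightest, summed to 2388 to 5139 on the A arrays and 4844 to 8006 on the B arrays, against 202 to 284.3 on the C arrays. Each group held 1 array of each letter, and the part of these markers in any result was not tested.

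Of the 59 Rab genes, 17 had a mean intensity of at least 1000, 20 from 100 to 1000 and 22 under 100. The dimmest 18, under 50, lay near the array medians of about 30 units. In total 10 genes were called in at least 1 comparison and 49 in none. The share of all genes called in at least 1 comparison was not computed, and shares for each comparison are given below. The plot of all members by array gives the differences from untreated cells for every gene.

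**Figure D1:**
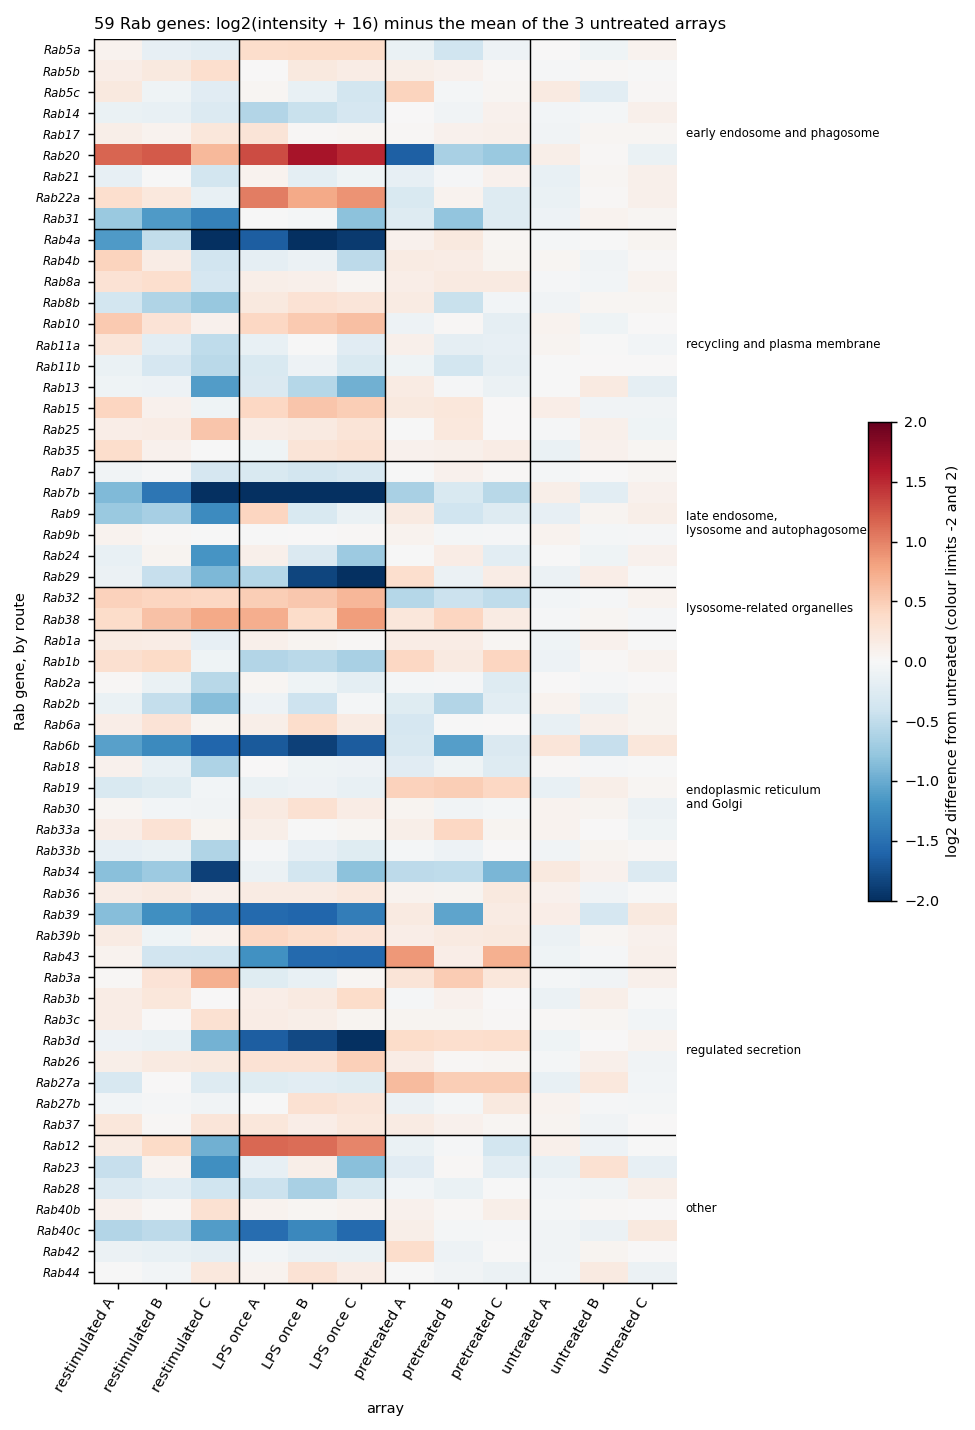
Each row is 1 of the 59 Rab genes, grouped by membrane route, and each column 1 of the 12 arrays, with colour for log2(intensity + 16) minus the mean of the 3 untreated arrays (limits -2 and 2). Rab20 is red in all restimulated and LPS once arrays, Rab7b, Rab4a, Rab3d and Rab43 are deep blue in LPS once arrays, and most rows stay pale.

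LPS given once raised Rab20 and Rab12 and lowered Rab7b, Rab4a, Rab3d, Rab6b, Rab39, Rab29, Rab40c and Rab43. That is 2 genes called higher and 8 called lower of 59, where 3.90% of all genes were called higher and 9.10% lower. Neither count stands far from these shares, and the median log2 difference was -0.06 over the Rab genes and 0.04 over all genes. Without the fold minimum 12 Rab genes passed as higher and 12 as lower, against 13.0% and 20.3% of all genes. Of all called genes 30% were higher, and 44.4% after quantile normalization. Because the arrays measure bulk RNA, fewer cells of a type and less RNA per cell cannot be told apart in these values.

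After pretreatment alone, no Rab gene was called in limma, with 4 higher and 3 lower at an unadjusted p under 0.05, beside 5.80% and 6.23% of all genes. Among all genes 0.291% were called higher and 0.308% lower. With the replicate letters as a block these counts were 100 and 97 genes, against 53 and 56 without, and both Rab counts were 0 again. Without the fold minimum Rab19 passed as higher and Rab32 as lower, against 0.473% and 0.440% of all genes.

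LPS given after pretreatment raised 1 Rab gene past the call, Rab20, and lowered none. The backgrounds were 0.665% higher and 1.29% lower, and 4 Rab genes were higher and 15 lower at an unadjusted p under 0.05, beside 4.52% and 15.3% of all genes. Without the fold minimum, Rab20 and Rab32 passed as higher and Rab19, Rab27a and Rab40c as lower, against 0.967% and 3.07% of all genes. Of all called genes 34.1% were higher, and 55.5% after quantile normalization, which also made Rab32 a call.

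The interaction is the second response minus the first. No Rab gene was called in limma, against 1.23% of all genes higher and 1.44% lower, and 8 Rab genes lay each way at an unadjusted p under 0.05, beside 8.51% of all genes higher and 8.95% lower. Without the fold minimum 0 passed as higher and 2, the dim Rab19 and Rab39b, as lower, against 1.91% and 1.95% of all genes.

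Restimulated cells set directly against cells given LPS once had higher Rab3d, Rab43 and Rab7b and lower Rab12. These 3 genes higher and 1 lower stand beside backgrounds of 2.48% and 3.18%. Without the fold minimum 5 passed as higher and 6 as lower, against 7.46% and 7.18%. This comparison shares the 3 LPS once arrays with the first response, and the pretreatment effect shares the untreated arrays with it.

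**Figure D2:**
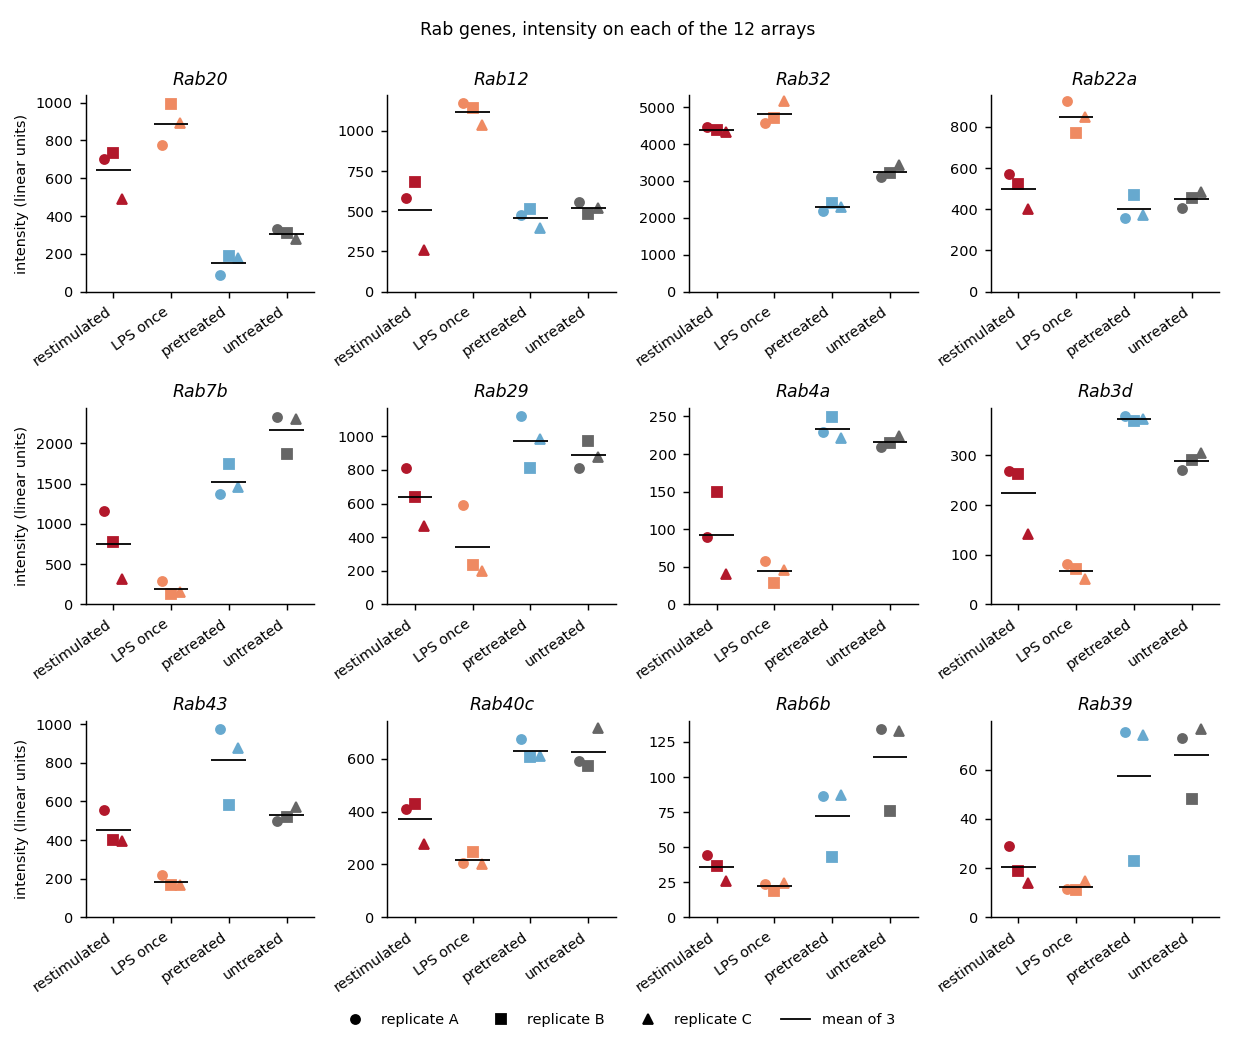
Each panel gives 1 Rab gene, with linear intensity on the y axis, 1 point per array (circle, square and triangle for replicates A, B and C) and a bar for the mean of 3. Rab20 and Rab32 are higher after LPS in both pairs of groups, and the 8 genes from Rab7b to Rab39 have their lowest group mean in LPS once cells.

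Among the 9 Rab genes of early endosomes and phagosomes, Rab20 was the gene called in either response. Rab20 sits on endosomes and phagosomes and takes part in phagosome maturation in macrophages. Its intensity was 778, 994 and 894 in cells given LPS once, against 332, 309 and 277 in untreated cells. In the other pair it was 704, 735 and 490 in restimulated cells, against 87.3, 189 and 177 in pretreated cells. Neither pair overlapped, and the pretreated arrays were below all the others. The first response was a 2.8-fold rise (log2 1.49 ± 0.25, limma adjusted p = 0.00148) and the second a 4.06-fold rise (2.02 ± 0.25, adjusted p = 0.00573). Fitted on the restimulated and pretreated arrays alone, the second response had an adjusted p of 0.137. Pretreated minus untreated was -1.01 ± 0.25 (adjusted p = 0.119), and the responses differed by 0.54 ± 0.35 (interaction, adjusted p = 0.509). Restimulated minus LPS once was -0.47 ± 0.25 (adjusted p = 0.273).

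The promoter of Rab20 held the one ISRE-like match among the called genes that have a promoter entry. RefSeq promoters (GRCm38.p6) matched 48 of the 59 Rab genes, with 60 entries, and the 250 bases before each start were searched on both strands for an NF-kappaB-like motif (GGANTTNCC), an ISRE-like motif (GAAANNGAA, as in interferon-response elements) and an AP-1 motif (TGANTCA). Among the 60 Rab entries 0 held the NF-kappaB-like motif, 3 the ISRE-like motif (Rab19, Rab20 and Rab40b) and 2 the AP-1 motif (Rab15 and Rab34). Of all 32851 promoters, 3.15%, 7.13% and 6.75% held them. Called genes without an entry are Rab7b and Rab4a. The sequences below are shown because these genes carry the main patterns: Rab20 and Rab32 up in both responses, Rab12 called higher in the first response and not in the second, and Rab3d lower after LPS once and higher in restimulated cells. They are written 5′ to 3′ on the gene's strand, ending at the base before the start, with capitals for a motif match. For Rab20 (chr8:11478641-11478890, minus strand) the match begins 189 bases before the start. For Rab32 (chr10:10558208-10558457), Rab12 (chr17:66519671-66519920) and Rab3d (chr9:21918184-21918433), all on the minus strand, no searched motif is in this window.
Rab20: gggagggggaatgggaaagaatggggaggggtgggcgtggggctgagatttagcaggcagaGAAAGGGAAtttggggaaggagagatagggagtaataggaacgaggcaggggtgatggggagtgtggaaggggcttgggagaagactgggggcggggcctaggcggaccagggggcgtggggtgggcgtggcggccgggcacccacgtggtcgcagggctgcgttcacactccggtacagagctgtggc
Rab32: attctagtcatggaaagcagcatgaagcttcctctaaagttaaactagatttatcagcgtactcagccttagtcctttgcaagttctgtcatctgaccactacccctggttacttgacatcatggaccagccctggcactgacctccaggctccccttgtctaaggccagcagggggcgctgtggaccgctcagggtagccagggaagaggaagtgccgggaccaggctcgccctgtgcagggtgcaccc
Rab12: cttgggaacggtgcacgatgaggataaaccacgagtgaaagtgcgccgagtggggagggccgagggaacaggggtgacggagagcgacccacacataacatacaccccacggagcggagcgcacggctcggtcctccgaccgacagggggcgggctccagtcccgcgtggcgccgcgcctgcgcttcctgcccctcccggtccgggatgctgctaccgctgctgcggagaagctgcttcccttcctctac
Rab3d: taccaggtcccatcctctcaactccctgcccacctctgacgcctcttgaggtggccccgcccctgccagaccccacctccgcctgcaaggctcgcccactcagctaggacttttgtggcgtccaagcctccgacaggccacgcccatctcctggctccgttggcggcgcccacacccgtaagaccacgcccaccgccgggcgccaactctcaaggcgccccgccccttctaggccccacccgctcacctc
The 4 windows differ in CG dinucleotides, with 12 in Rab20, 5 in Rab32, 26 in Rab12 and 18 in Rab3d, beside a median of 15 over the 60 Rab entries and 6 over all promoters.

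Rab22a, which acts on early and recycling endosomes, gave opposite results by probe set. The brightest, 1451379_at, read 925, 770 and 850 in cells given LPS once, against 407, 456 and 484 in untreated cells. Its difference was 0.89 ± 0.14 (adjusted p = 0.00117), under 2-fold. The next, 1454988_s_at, read 317.2, 323.6 and 269.5 in cells given LPS once, against 493.4, 615.0 and 556.1 in untreated cells, a difference of -0.84 ± 0.11 in a fit of all probe sets (adjusted p = 0.000548). The other two had differences of -0.39 and -0.38 with adjusted p of 0.0613 and 0.0886. After quantile normalization 1451379_at had 1.04 and was called (adjusted p = 8.98e-05), and the median of the probe sets was -0.47 (adjusted p = 0.0106). The direction of Rab22a thus depended on the probe set, and which transcript each reads was not analysed here. In restimulated cells 1451379_at read 571, 520 and 401, lower than in cells given LPS once (-0.76 ± 0.14, adjusted p = 0.00674). There too the direction depended on the probe set, since 1454988_s_at had 0.23, 1424504_at 0.40 and 1424503_at -0.07 (adjusted p = 0.25, 0.124 and 0.809).

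**Figure D3:**
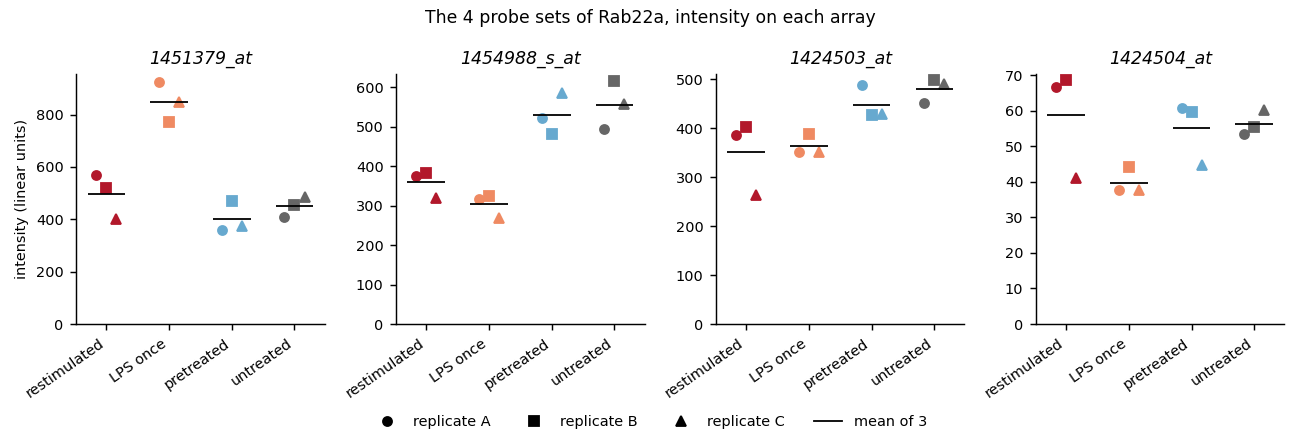
The 4 panels give the probe sets of Rab22a, brightest first, with linear intensity on the y axis, 1 point per array by replicate and a bar for the mean of 3. In LPS once cells 1451379_at lies above untreated cells and the other 3 probe sets lie below.

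Rab5a, the organiser of early endosome fusion, was modestly higher after LPS once. It read 2741, 2789 and 2780 in these cells, against 2158, 2034 and 2268 in untreated cells, without overlap (0.36 ± 0.10, adjusted p = 0.0159). Restimulated cells had 2268, 1912 and 1861 and lay below cells given LPS once (-0.46 ± 0.10, adjusted p = 0.0105), and the second response was 0.11 ± 0.10 (adjusted p = 0.534). Rab14, which joins phagosomes and early endosomes with the Golgi, was lower after LPS once. It read 2986, 3268 and 3554 in cells given LPS once, against 4292, 4343 and 4779 in untreated cells (-0.45 ± 0.08, adjusted p = 0.00209). Its second response was -0.19 ± 0.08 (adjusted p = 0.232), with 4080, 4020 and 3683 in restimulated cells, against 4476, 4238 and 4719 in pretreated cells. The remaining members Rab5b, Rab5c, Rab17, Rab21 and Rab31 were called in no comparison. Rab31 read lower in restimulated cells, with 1792, 1368 and 1163, than in cells given LPS once, with 2989, 2934 and 1686, but the difference of -0.78 ± 0.24 had an adjusted p of 0.058.

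Rab32 and Rab38 direct cargo to lysosome-related organelles, and Rab32 restricts Salmonella Typhi in mouse macrophages. Rab32 read 4562, 4707 and 5170 in cells given LPS once, against 3119, 3205 and 3430 in untreated cells. It read 4462, 4384 and 4318 in restimulated cells, against 2177, 2410 and 2291 in pretreated cells. The groups did not overlap in either pair, and pretreated arrays were all below untreated ones. The first response was 0.56 ± 0.07 (adjusted p = 0.000195), the second 0.93 ± 0.07 (adjusted p = 0.000507) and pretreated minus untreated -0.50 ± 0.07 (adjusted p = 0.00777). All 3 differences are under the 2-fold minimum, and after quantile normalization the second response reached 1.03 (adjusted p = 0.000573). The 2 responses differed by 0.37 ± 0.09 (adjusted p = 0.0629), and restimulated minus LPS once was -0.13 ± 0.07 (adjusted p = 0.245). Rab38 was dim, with 76.9, 56.2 and 84 in cells given LPS once, against 39.1, 41.7 and 39.4 in untreated cells (0.64 ± 0.14, adjusted p = 0.0051), and its second response was 0.29 ± 0.14 (adjusted p = 0.264).

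Of the 6 Rab genes of late endosomes, lysosomes and autophagosomes, Rab7b and Rab29 were called lower after LPS once. Rab7b acts in transport between late endosomes and the Golgi and has been described in mouse macrophages as lowering surface Toll-like receptor 4. It read 297, 133 and 152 in cells given LPS once, against 2325, 1864 and 2295 in untreated cells. It read 1161, 780 and 311 in restimulated cells, against 1369, 1740 and 1452 in pretreated cells. Neither pair overlapped, and restimulated C lay closest to the LPS once arrays. The first response was a 10.9-fold fall (log2 -3.45 ± 0.42, adjusted p = 0.00025), the greatest difference of any Rab gene in these 5 comparisons, and the 3 probe sets of Rab7b all fell, with log2 differences of -3.45, -2.96 and -1.41. The second response was -1.18 ± 0.42 (adjusted p = 0.156), so the interaction was 2.27 ± 0.60 with an adjusted p of 0.073. Without restimulated C the interaction was 2.79 (adjusted p = 0.00649) and was called. Restimulated cells were 3.39-fold above cells given LPS once (1.76 ± 0.42, adjusted p = 0.0209), a call lost in 5 of 19 alternatives, where adjusted p reached 0.144 on the arrays of these 2 groups alone.

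Rab29, also called Rab7l1, works at the Golgi and at lysosomes and recruits the kinase Lrrk2. It read 593, 237 and 197 in cells given LPS once, against 811, 970 and 878 in untreated cells. Replicate A was well above B and C in the LPS once group, though below every untreated array (-1.49 ± 0.35, adjusted p = 0.00909). Restimulated cells read 812, 639 and 466, against 1121, 810 and 984 in pretreated cells, and those ranges overlapped (-0.61 ± 0.35, adjusted p = 0.36). Restimulated minus LPS once was 1.00 ± 0.35 (adjusted p = 0.0917), and without LPS once replicate A it was 1.46 and called (adjusted p = 0.00318). Rab7, which drives fusion of late endosomes with lysosomes, changed far less than Rab7b. It read 3686, 3521 and 3645 in cells given LPS once, against 4412, 4565 and 4640 in untreated cells (-0.33 ± 0.08, adjusted p = 0.0102). Its second response was -0.18 ± 0.08 (adjusted p = 0.247). Rab9, which returns mannose 6-phosphate receptors to the Golgi, was lower in restimulated cells than in cells given LPS once. It read 559, 591 and 386 in restimulated cells, against 1270, 760 and 855 in cells given LPS once (-0.88 ± 0.23, adjusted p = 0.0285). Without LPS once replicate B the difference was -1.03 and called (adjusted p = 0.0302). Without restimulated C it was -0.69 (adjusted p = 0.0657), and over the alternatives adjusted p reached 0.122.

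The 11 Rab genes of recycling and the plasma membrane held 1 called gene, Rab4a, which returns receptors quickly from early endosomes to the surface. Rab4a read 58.1, 28.8 and 45.7 in cells given LPS once, against 209, 214 and 224 in untreated cells. It read 89.2, 149 and 40.6 in restimulated cells, against 229, 250 and 222 in pretreated cells. Both pairs were separate, with restimulated C inside the range of the LPS once arrays. LPS once minus untreated was -1.98 ± 0.32 (adjusted p = 0.00126). The second, -1.33 ± 0.32, had an adjusted p of 0.0534 and was called in 2 of 19 alternatives. Restimulated minus LPS once was 0.75 ± 0.32 (adjusted p = 0.165), and without restimulated C it was 1.16 and called (adjusted p = 0.0073). Of the 2 probe sets of Rab4a, the other gave -2.14 and -1.29 for the same differences.

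Rab8b, which carries vesicles from the Golgi and endosomes to the surface, was lower in restimulated cells than in cells given LPS once. It read 3659, 3121 and 2790 in restimulated cells, against 5456, 5783 and 5619 in cells given LPS once (-0.82 ± 0.14, adjusted p = 0.00469). Its first response was 0.24 ± 0.14 (adjusted p = 0.222) and the second -0.47 ± 0.14 (adjusted p = 0.108). Rab10, which brings Toll-like receptor 4 to the surface of macrophages, read 3584, 3896 and 4101 in cells given LPS once, against 2827, 2553 and 2719 in untreated cells (0.51 ± 0.11, adjusted p = 0.00568). Another of its probe sets, 1422664_at, with a mean of 1609 units, had 1.16 ± 0.19 in a fit of all probe sets (adjusted p = 0.00153), past both parts of the call. In the other pair the brightest probe set of Rab10 read 3899, 3263 and 2858 in restimulated cells, against 2515, 2755 and 2389 in pretreated cells (0.38 ± 0.11, adjusted p = 0.0914). Rab11a, the main Rab of slow recycling, read 2919, 3196 and 2751 in cells given LPS once, against 3371, 3202 and 3116 in untreated cells, and the groups overlapped (-0.13 ± 0.16, adjusted p = 0.572). Its second response was -0.08 ± 0.16 (adjusted p = 0.835). The other probe set of Rab11a, 1434549_at, had a mean of 616 units. In a fit of all probe sets its first response was 0.40 ± 0.15 (adjusted p = 0.0761). Its restimulated minus LPS once difference was -0.57 ± 0.15 (adjusted p = 0.037). Rab15, on the same route, passed as higher after LPS once without the fold minimum (0.49 ± 0.12, adjusted p = 0.0125).

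Among the 16 Rab genes of the endoplasmic reticulum and Golgi, 3 were called lower after LPS once: Rab43, Rab6b and Rab39. Rab43 works between the endoplasmic reticulum and the Golgi. It read 220, 169 and 167 in cells given LPS once, against 501, 519 and 572 in untreated cells. It read 554, 402 and 396 in restimulated cells, against 975, 581 and 879 in pretreated cells. Every restimulated array lay above every LPS once array. The first response was -1.45 ± 0.20 (adjusted p = 0.000451), the second -0.81 ± 0.20 (adjusted p = 0.0534), and restimulated minus LPS once 1.21 ± 0.20 (adjusted p = 0.00337). With the median of its 3 probe sets that last difference was 0.61 (adjusted p = 0.264).

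Rab6b, the form of Rab6 known best from neurons, and Rab39 were dim. Rab6b read 23.6, 18.9 and 24.3 in cells given LPS once, against 134, 75.9 and 133 in untreated cells (-1.74 ± 0.25, adjusted p = 0.000694). Rab39 read 11.4, 11.1 and 14.9 in cells given LPS once, against 72.9, 48.2 and 76.5 in untreated cells (-1.51 ± 0.31, adjusted p = 0.00433). Both read below the array medians after LPS, where the added 16 compresses folds. In the pretreated group replicate B was low for both, at 43 for Rab6b and 22.9 for Rab39, against 86.3 or more and 74.1 or more on the A and C arrays. Their second responses were -0.74 ± 0.25 and -0.92 ± 0.31 (adjusted p = 0.137 and 0.129). Without pretreated replicate B both were called lower in the second response, at -1.01 and -1.33 (adjusted p = 0.0332 and 0.00629), as was Rab43 at -1.03 (adjusted p = 0.00949). Another probe set of Rab6b, 1455924_at, gave 0.17 ± 0.17 in the first response, and the median over its probe sets was -0.68.

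Rab1a and Rab1b carry cargo from the endoplasmic reticulum to the Golgi. After LPS once, Rab1b passed the adjusted p without reaching 2-fold, and Rab1a did not pass. Rab1a read 4391, 4249 and 4155 in cells given LPS once, against 3850, 4377 and 4095 in untreated cells, overlapping (0.06 ± 0.09, adjusted p = 0.665). Rab1b read 466, 480 and 443 in cells given LPS once, against 657, 721 and 747 in untreated cells (-0.59 ± 0.12, adjusted p = 0.00454). In restimulated cells Rab1b read 886, 923 and 662, higher than in cells given LPS once by 0.80 ± 0.12 (adjusted p = 0.00247). No test compared the 2 genes with each other.

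Of the 8 Rab genes of regulated secretion, Rab3d, which sits on secretory granules, was the one called. It read 80.9, 71.3 and 51.1 in cells given LPS once, against 271, 291 and 305 in untreated cells. It read 269, 262 and 142 in restimulated cells, against 378, 368 and 373 in pretreated cells. Restimulated A and B were near the untreated level, and C lay between these and the LPS once arrays. Rab3d thus had a first response of -1.88 ± 0.21 (adjusted p = 0.000159) and a second of -0.75 ± 0.21 (adjusted p = 0.0843). Restimulated minus LPS once was 1.49 ± 0.21 (adjusted p = 0.00165), called under all 19 alternatives tried. The interaction, 1.13 ± 0.30, had an adjusted p of 0.0734. Without restimulated C it was 1.41 and called (adjusted p = 0.00381).

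Rab27a, which docks secretory lysosomes, was dim, and its kept probe set, 1429123_at, read lower in restimulated than in pretreated cells. It read 19, 27.6 and 20.5 in restimulated cells, against 51.9, 45.4 and 45.4 in pretreated cells (-0.73 ± 0.11, adjusted p = 0.0089), under 2-fold. Pretreated minus untreated was 0.54 ± 0.11 (adjusted p = 0.0528), where untreated arrays read 23.2, 34.3 and 25.9. The median of its probe sets put the second response at 0.05 (adjusted p = 0.656). Rab3a, a Rab of synaptic and other regulated vesicles, read 372, 397 and 457 in cells given LPS once, against 433, 421 and 477 in untreated cells, with overlap (-0.12 ± 0.16, adjusted p = 0.603).

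Among the 7 genes outside these routes, Rab12 and Rab40c were called. Rab12, which takes receptors from recycling endosomes to lysosomes, read 1175, 1141 and 1036 in cells given LPS once, against 557, 484 and 519 in untreated cells. It read 580, 682 and 260 in restimulated cells, against 474, 511 and 397 in pretreated cells, overlapping. The first response was a 2.12-fold rise (1.08 ± 0.28, adjusted p = 0.0149) and the second 0.03 ± 0.28 (adjusted p = 0.965). Restimulated minus LPS once was -1.22 ± 0.28 (adjusted p = 0.0175), and without restimulated C it was -0.81 (adjusted p = 0.00201), under 2-fold. That call was also lost without LPS once replicate B (-1.20, adjusted p = 0.0528). Without untreated replicate B the first response had an adjusted p of 0.0506. The interaction was -1.05 ± 0.40 (adjusted p = 0.204).

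Rab40c belongs to the Rab40 group, whose SOCS box recruits a ubiquitin ligase. It read 207, 246 and 201 in cells given LPS once, against 590, 572 and 716 in untreated cells. It read 409, 429 and 278 in restimulated cells, against 673, 607 and 611 in pretreated cells. Both pairs were separate, and restimulated arrays lay between the LPS once and untreated ones. Its first response was -1.45 ± 0.16 (adjusted p = 0.000119). The second was -0.76 ± 0.16 (adjusted p = 0.0291) and restimulated minus LPS once 0.71 ± 0.16 (adjusted p = 0.0138), both under 2-fold. The other probe set of Rab40c, 1424332_at, was dim, with a mean of 28.83 units. Its first response was -0.40 ± 0.14 in a limma fit of all probe sets (adjusted p = 0.0642). With the median of the probe sets the first response of Rab40c was -0.92, under 2-fold.

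**Figure D4:**
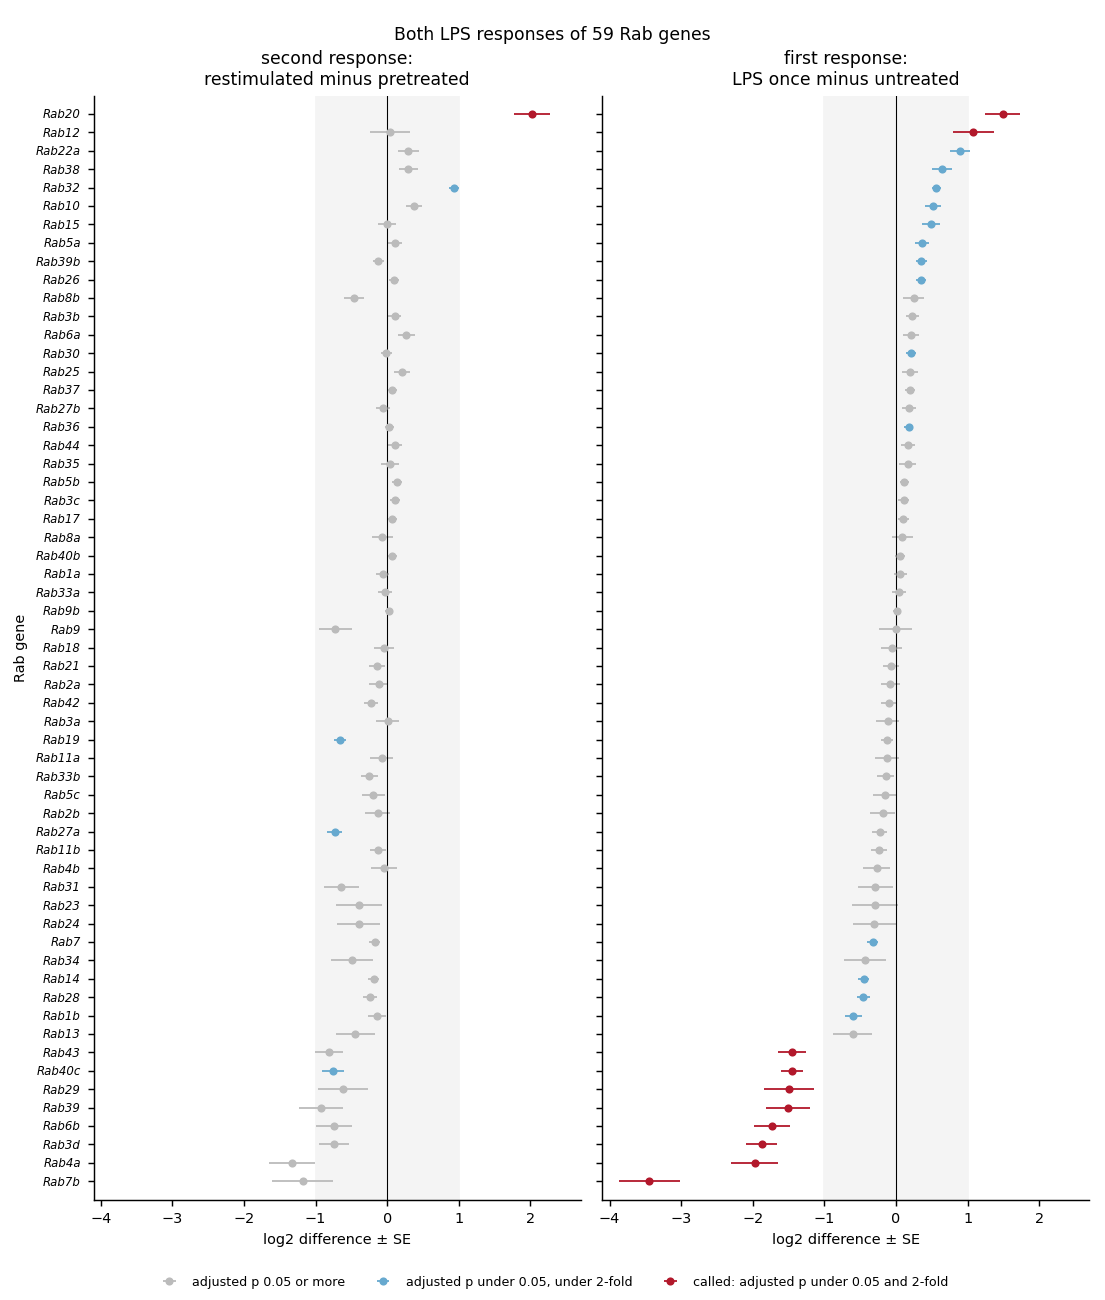
Points are log2 differences with their SE for the 59 Rab genes, ordered by the first response, with restimulated minus pretreated on the left and LPS once minus untreated on the right (grey band: under 2-fold). The first response runs from -3.45 for Rab7b to 1.49 for Rab20, and the second from -1.33 for Rab4a to 2.02 for Rab20.

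The 8 genes lowered by LPS once had second responses from -1.33 for Rab4a to -0.61 for Rab29, all below 0 and none past the call, as the plot of both responses shows. Of all 59 Rab genes, 38 had a second response below 0. The restimulated C array, which was low for most genes, enters each of these values. The 2 responses share no arrays, but these genes were picked by their first response, which enters the interaction. Of the 49 genes called nowhere, 43 had a first response and 44 a second response within 0.5 of 0 on the log2 scale. These 49 were picked for having no call, which in part fixes small differences in advance. Of the 18 dimmest genes, Rab39 was the 1 called, and 17 were not. Shares over all genes were not computed for these counts.

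In the first response several bright Rab genes differed by less than the SE, which pools the spread of all 4 groups. Rab2a, of traffic between the endoplasmic reticulum and the Golgi, read 3296, 3010 and 2797 in cells given LPS once, against 3225, 3162 and 3211 in untreated cells (-0.08 ± 0.13, adjusted p = 0.676), while a dimmer probe set, 1418623_at, had 0.44 (adjusted p = 0.0255). Rab18, found on the endoplasmic reticulum and lipid droplets, read 2259, 2125 and 2108 in cells given LPS once, against 2296, 2217 and 2254 in untreated cells (-0.06 ± 0.15, adjusted p = 0.775). Rab21, an endosomal Rab that handles integrins, read 1418, 1179 and 1273 in cells given LPS once, against 1221, 1386 and 1453 in untreated cells (-0.07 ± 0.11, adjusted p = 0.671). These 3 pairs overlapped, and the second responses of the genes were -0.12, -0.04 and -0.15 with adjusted p of 0.656, 0.901 and 0.502. Rab6a, of transport within and from the Golgi, did not overlap in either pair but missed the threshold. It read 1153, 1369 and 1201 in cells given LPS once, against 956, 1145 and 1110 in untreated cells (0.21 ± 0.12, adjusted p = 0.192). It read 1174, 1299 and 1111 in restimulated cells, against 844, 1058 and 1079 in pretreated cells (0.27 ± 0.12, adjusted p = 0.237). Rab28, with 470, 401 and 510 in cells given LPS once, against 611, 605 and 693 in untreated cells, passed as lower without the fold minimum (-0.46 ± 0.09, adjusted p = 0.0046). The dim genes Rab26, Rab30, Rab36 and Rab39b passed as higher in the first response in the same way, at 0.35, 0.21, 0.18 and 0.35.

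The genes that load, switch off or read Rabs were examined as 4 lists. None of the 7 measured prenylation and escort genes was called in limma in any comparison. In the first response 0 of them were higher and 3 lower at an unadjusted p under 0.05, where 19.5% of all genes were higher and 23.9% lower. They were Rabggta, a subunit of the Rab prenylating enzyme (-0.88 ± 0.20, adjusted p = 0.00844), Rabac1 (-0.83 ± 0.23, adjusted p = 0.0205) and Gdi2, which extracts Rabs from membranes (-0.57 ± 0.11, adjusted p = 0.00315).

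Exchange factors moved both ways after LPS once: 2 of 26 were called higher and 4 lower, beside 3.90% and 9.10% of all genes. Rabgef1, which activates Rab5, averaged 796.7 in cells given LPS once and 283.8 in untreated cells (1.42 ± 0.15, adjusted p = 0.000126). Rin3, another exchange factor of the Rab5 group, averaged 472.3 in cells given LPS once and 186.4 in untreated cells (1.26 ± 0.26, adjusted p = 0.00451). Rin3 averaged 88.1 in restimulated cells, lower than in cells given LPS once (-2.28 ± 0.26, adjusted p = 0.00052), and its interaction of -1.87 ± 0.37 was called (adjusted p = 0.0249). Rab3il1 averaged 104.8 in cells given LPS once and 1299 in untreated cells (-3.50 ± 0.30, adjusted p = 3.6e-05). Madd, which activates Rab3 and Rab27, averaged 226.2 in cells given LPS once and 1177 in untreated cells (-2.30 ± 0.16, adjusted p = 1.4e-05). Madd and Rab3il1 were higher in restimulated than in LPS once cells, by 1.68 and 1.63, while Dennd4a, an exchange factor of Rab10, was lower there (-1.32 ± 0.25, adjusted p = 0.00642). Dennd4c, also of Rab10, changed by -2.22 and Dennd1b, of Rab35, by -1.39 after LPS once.

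Of 35 GTPase-activating proteins, 1 was called higher and 8 lower after LPS once, beside 3.90% and 9.10% of all genes. Tbc1d4, which acts on Rab10 and its relatives, averaged 22.65 in cells given LPS once and 240.1 in untreated cells (-2.72 ± 0.38, adjusted p = 0.000548). Tbc1d8, Tbc1d24, Tbc1d16, Tbc1d14 and Tbc1d7 changed by -2.60, -2.10, -1.82, -1.75 and -1.31, and Tbc1d16 is known to act on Rab4a. The called increase was Tbc1d1 (1.18 ± 0.30, adjusted p = 0.0132). Restimulated cells had less Tbc1d1 than cells given LPS once (-1.62 ± 0.30, adjusted p = 0.00605) and more Tbc1d8 (1.83 ± 0.22) and Tbc1d24 (1.37 ± 0.19). In the second response 0 were called higher, and Tbc1d14 was lower (-1.50 ± 0.25, adjusted p = 0.0137), beside 0.665% and 1.29% of all genes.

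Of 42 measured effectors, 3 were called higher and 12 lower after LPS once, beside 3.90% and 9.10% of all genes. Rab11fip1, which binds Rab11 on recycling endosomes, averaged 822 in cells given LPS once and 33.92 in untreated cells (3.99 ± 0.36, adjusted p = 4.8e-05). It averaged 140.6 in restimulated cells, lower than in cells given LPS once (-2.41 ± 0.36, adjusted p = 0.00215). Appl1, an effector of Rab5 on early endosomes, and Inpp5b, a phosphoinositide phosphatase that binds Rab5, rose by 1.59 and 1.62 after LPS once. Both were lower in restimulated than in LPS once cells, at -1.75 and -1.64. Plekhm1, which joins Rab7 to the lysosomal tether, changed by -2.90 ± 0.27 (adjusted p = 5.4e-05), and Rubcn, which binds Rab7, by -1.85 ± 0.27 (adjusted p = 0.000694). Rab11fip5 changed by -2.67, Lrrk1, a kinase of Rab7, by -1.98 and Mical1 by -1.75. Plekhm1, Lrrk1, Rab11fip5 and Unc13d, a Rab27 effector of granule release, were higher in restimulated than in LPS once cells, by 1.59, 1.58, 1.16 and 1.01. In the interaction 2 effectors were called higher and 3 lower, beside 1.23% and 1.44% of all genes, and those lower were Rab11fip1 (-2.59), Inpp5b (-1.87) and Appl1 (-1.38).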

How the data were processed

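RNA was labelled for Affymetrix arrays by the maker's standard procedure, per the labels' protocols. The deposited values are linear intensities of probe sets; no source used here names the program or scaling, and their range showed the scale. Of 45101 probe sets, 34945 carried 1 symbol in the platform annotation, and symbols were updated by Entrez ID through RefSeq (GRCm38.p6), which changed 0 Rab symbols. Per gene the probe set with the highest mean log2(value + 16) was kept. No further normalization was applied. Limma 3.58.1 in R 4.3.3 fitted 4 group means with 8 residual degrees of freedom and tested 5 contrasts, adjusted over 18193 genes. The script was tested on simulated data. Arrays of the same replicate letter resembled each other. Deviations from group means correlated at 0.25 to 0.656 over the 18 same-letter pairs of arrays, against -0.482 to 0.0134 over the 36 others. Deviations sum to 0 within a group, so positive values in same-letter pairs bring negative ones in the others. The main fit leaves this pairing by letter out, and the block on letters is an alternative. Alternatives were the block on letters, quantile normalization, pseudocounts of 1 and 64, a mean of at least 50, the median of a gene's probe sets, the arrays of the groups compared, no fold minimum, and leaving out each array. The number of arrays limits the precision. The members, gene lists and tests were chosen with earlier results of these data known. Named are genes called in any comparison, the brightest of each route, Rab5a, Rab7, Rab11a, Rab14, Rab20, Rab27a and Rab32, genes with opposite probe sets, and up to 6 called regulators per list and contrast. Other genes named with values were chosen after their values were seen.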

Additional observations from a re-analysis of the deposited data

Results flagged for a closer look

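For 2 dim Rab genes the test of the difference between the responses passed without reaching 2-fold. Rab19, a Golgi Rab, had an interaction of -0.5333 (limma adjusted p = 0.0389). It read 22.3, 24 and 29.8 in restimulated cells, against 49.4, 50.8 and 47.1 in pretreated cells, and 27.4, 28.1 and 26.8 in cells given LPS once, against 26.6, 35.2 and 32.9 in untreated cells. Rab39b had an interaction of -0.4734 (limma adjusted p = 0.045, and 0.0705 with the replicate block). It read 28.2, 21.5 and 25.5 in restimulated cells, against 27.3, 29.1 and 29.4 in pretreated cells, and 37, 34.5 and 32 in cells given LPS once, against 20.5, 24.6 and 26 in untreated cells. Adjusted p over the alternatives reached 0.0975 for Rab19 and 0.106 for Rab39b. Both lie near the array medians.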

How the results depend on the processing

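Of the 15 calls of single Rab genes, 7 held under every alternative run, and 268 of their 284 recomputed values kept the call. None of the 15 changed direction. Under the replicate block, with 8 Rab genes lower and 2 higher in the first response, 1 higher in the second and 3 higher and 1 lower in the level after LPS, no call of a Rab gene changed. The causes of the changes below were not tested.

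Genes called higher in the first response numbered 1 with the median of the probe sets, where Rab12 had 0.64, Rab6b -0.68 and Rab40c -0.92, and 12 with no fold minimum. Rab39 had -0.76 with a pseudocount of 64. With no fold minimum the counts were 1 higher and 1 lower after pretreatment, 2 higher and 3 lower in the second response, 2 lower in the interaction, and 5 higher and 6 lower in the level after LPS. Second-response counts were 2 higher after quantile normalization, 0 higher on the arrays of those groups alone, and 1 lower with a pseudocount of 1 (Rab27a, -1.07) or a mean of at least 50 (Rab4a, -1.33). Interaction counts were 2 higher, Rab7b and Rab3d, after quantile normalization and with a mean of at least 50. Genes lower in the level after LPS numbered 0 with the median of the probe sets and 0 on the arrays of those groups alone, where Rab12 had an adjusted p of 0.128.

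Leaving out 1 array gave 1 to 2 genes higher in the first response, 0 to 3 lower in the second, 0 to 2 higher in the interaction, and 2 to 4 higher and 0 to 2 lower in the level after LPS. The low ends and gains came from untreated B (first response, 1 higher), pretreated B (second, 3 lower), restimulated B (second, 1 lower), LPS once A and restimulated C (interaction, 2 higher each), LPS once A (level, 4 higher, with Rab29), LPS once C (level, 2 lower, with Rab31) and restimulated C (level, 4 higher, with Rab4a, and 0 lower). Without LPS once B the level held 1 lower gene still, Rab9 (-1.03, adjusted p = 0.0302) in place of Rab12 (adjusted p = 0.0528), and 2 higher. The call of Rab7b in the level after LPS was lost without LPS once B or C or restimulated A or B, at adjusted p of 0.0573 to 0.0754. Over all genes, leaving out restimulated C gave 93 lower in the second response against 234, 480 higher in the interaction against 223, and 733 higher in the level after LPS against 451.

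Signs turned for the differences below, none of them called. With the median of the probe sets Rab22a had -0.47 in the first response against 0.89, -0.26 in the second, 0.21 in the interaction and 0.079 in the level after LPS against -0.76, and Rab27a's second response of -0.73 (adjusted p = 0.0089) became 0.047. In the same way Rab11a had 0.14 in the first and 0.21 in the second response, Rab27a 0.027 in the first response and 0.02 in the interaction, and Rab14 -0.038 after pretreatment. After quantile normalization Rab7 had -0.014 and Rab14 -0.041 after pretreatment, Rab11a 0.014 in the second response and 0.11 in the level after LPS, and Rab32 0.011 in that level. Leaving out 1 array gave Rab14 -0.036 to 0.051 after pretreatment, Rab11a -0.28 to 0.10 in the second response, -0.15 to 0.23 in the interaction and -0.23 to 0.15 in the level after LPS, and Rab27a -0.058 to 0.10 in that level.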

Other observations

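Among the 59 Rab genes, Rab34 and Rab13 had their lowest array of each group on replicate C in all 4 groups. Stromal markers were low on these arrays. Over all genes 4.13% did so, and 2 of 59 does not exceed that share. Restimulated C was low for most genes. Of the 6228 genes with a mean from 100 to 1000, 91.6% read there below the mean of restimulated A and B. Rab34 read 230, 248 and 104 in restimulated cells, 390, 322 and 231 in cells given LPS once, 288, 292 and 217 in pretreated cells and 485, 447 and 346 in untreated cells. Rab13 read 249, 245 and 114 in restimulated cells, 215, 174 and 129 in cells given LPS once, 299, 263 and 243 in pretreated cells and 264, 305 and 233 in untreated cells. Rab23 had its highest array of each group on replicate B, with 4.34% of all genes, and Rab5c on replicate A, with 4.19%. The part of stromal cells in these values was not tested.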
